A study of Homo sapiens with 3 samples.

Results

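MME, NCAM2, ADGRG6, ITM2A and ADIRF were 5 of the 33423 genes counted in single cells of LNCaP and VCaP, a pair of prostate cancer lines, and each was abundant in one line and near or at 0 in the other. MME, NCAM2 and ADGRG6 were carried by LNCaP and ITM2A and ADIRF by VCaP. The genes were given as a list and had been chosen by their measured levels in these libraries, so the difference between the lines is described here with no test. The data were 3 Drop-seq libraries, in which single cells are caught in droplets with barcoded beads and each captured transcript carries a unique molecular identifier (UMI), with 1 library per sample and no replicates. LNCaP–ENZ168 was LNCaP under the androgen receptor antagonist enzalutamide (ENZ) at 10 µM for 168 h, VCaP parental was VCaP in 0.1% DMSO for 48 h, and VCaP–ENZ48 was VCaP in 10 µM ENZ for 48 h. No LNCaP library without drug was analysed here, so the line and its week under drug cannot be told apart for LNCaP. Each line is a single established culture.

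The kept cells numbered 944 in LNCaP–ENZ168, 997 in VCaP parental and 947 in VCaP–ENZ48, with medians of 5389, 17817 and 11224 UMIs per cell, and the 3 libraries shared 0 barcodes. Cell identity matched the labels. All 6 luminal prostate markers were found in every library, and ERG, which VCaP expresses from a gene fusion with TMPRSS2, had 0 UMIs in LNCaP–ENZ168 against 105 CPM (UMIs per 1000000 UMIs of the library) in VCaP parental and 57.1 CPM in VCaP–ENZ48. Basal, immune and endothelial markers that were found summed to at most 2.06 CPM per list in any library, while the fibroblast list summed to 6.81 CPM in LNCaP–ENZ168, 21.5 CPM in VCaP parental and 26.4 CPM in VCaP–ENZ48, nearly all of it LUM in VCaP. In VCaP parental and VCaP–ENZ48, 859 and 820 barcodes ended in N in place of a base, against 205 in LNCaP–ENZ168. The sources used here do not say how the N arose.

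The 5 genes act at or near the cell surface with 1 exception. MME encodes neprilysin, also called CD10, a membrane zinc peptidase that cleaves small peptides outside the cell and is found on normal prostate epithelium. NCAM2 is a homophilic adhesion molecule of the immunoglobulin superfamily, best known from olfactory neurons. ADGRG6, also called GPR126, is an adhesion G protein-coupled receptor that signals through cAMP and is needed for myelination by Schwann cells. ITM2A is a small type II membrane protein with a BRICHOS domain, known from cartilage, muscle and T cells. ADIRF, the exception, is a small protein first described as induced in fat tissue.

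The start regions of the genes are shown because the genes divide by line, and the ETS family of transcription factors, to which ERG belongs, has a short core that can be searched for in them. ETS genes were not confined to VCaP, as ETV1 of the same family had 143 CPM in LNCaP–ENZ168 and 0 UMIs in both VCaP libraries. Sequences are from RefSeq on GRCh38.p14 and run from 250 bases before the annotated start to 50 bases after it, 5′ to 3′ on the strand of the gene. Capitals mark the ETS core CCGGAA, searched on both strands, and the motif was chosen with the sequences at hand.

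NCAM2: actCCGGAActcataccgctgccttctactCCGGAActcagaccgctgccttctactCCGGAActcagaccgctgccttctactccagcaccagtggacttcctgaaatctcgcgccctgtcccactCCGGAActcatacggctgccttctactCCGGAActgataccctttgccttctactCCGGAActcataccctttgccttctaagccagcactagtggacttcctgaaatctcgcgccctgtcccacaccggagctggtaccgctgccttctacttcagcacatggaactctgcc

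ADGRG6: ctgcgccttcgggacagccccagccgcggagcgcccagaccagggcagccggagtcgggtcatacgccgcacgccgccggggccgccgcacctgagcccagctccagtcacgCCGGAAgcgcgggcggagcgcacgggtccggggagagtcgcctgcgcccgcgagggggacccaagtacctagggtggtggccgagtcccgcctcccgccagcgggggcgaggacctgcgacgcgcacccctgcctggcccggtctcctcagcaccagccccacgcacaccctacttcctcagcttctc

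MME: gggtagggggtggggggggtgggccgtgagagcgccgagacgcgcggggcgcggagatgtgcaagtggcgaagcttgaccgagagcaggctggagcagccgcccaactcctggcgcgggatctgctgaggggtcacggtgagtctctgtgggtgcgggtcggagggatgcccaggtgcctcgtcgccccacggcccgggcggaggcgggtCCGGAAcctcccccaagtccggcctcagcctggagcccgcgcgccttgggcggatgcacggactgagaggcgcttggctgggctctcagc

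ITM2A: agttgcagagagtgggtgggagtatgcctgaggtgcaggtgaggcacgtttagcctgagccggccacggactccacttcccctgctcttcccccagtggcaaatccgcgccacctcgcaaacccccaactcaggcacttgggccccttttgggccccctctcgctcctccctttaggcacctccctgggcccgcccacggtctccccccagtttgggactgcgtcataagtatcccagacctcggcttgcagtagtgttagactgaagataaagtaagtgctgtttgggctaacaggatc

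ADIRF: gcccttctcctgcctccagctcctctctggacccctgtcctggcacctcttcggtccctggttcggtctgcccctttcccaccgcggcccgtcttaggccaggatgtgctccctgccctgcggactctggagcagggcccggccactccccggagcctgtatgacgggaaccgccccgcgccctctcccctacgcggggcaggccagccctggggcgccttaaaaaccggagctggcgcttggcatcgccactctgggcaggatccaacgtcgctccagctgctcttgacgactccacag

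The NCAM2 window (chr21:21146912-21147211, plus strand) held 6 matches, at 247, 220, 193, 123, 96 and 68 bases before the start, and 3 of the 5 gaps between them were 27 bases, since the matches lie in a short repeated stretch. The window lies inside the longer NCAM2 gene model of Gencode and overlaps none of its exons. The ADGRG6 window (chr6:142301757-142302056, plus strand) held 1 match, 138 bases before the start, and 203 of its 300 bases were annotated as exon. MME has 4 annotated starts, which gave 0, 1, 1 and 0 matches. The windows of starts 2 and 3 overlap and hold the same site, which was counted in each. It lies 40 bases before start 2 and 181 bases before start 3. The window printed is that of start 2 (chr3:155079620-155079919, plus strand), with 174 exonic bases. The ITM2A window (chrX:79367285-79367584, minus strand) lay wholly in annotated exon sequence of ITM2A and held 0 matches. The ADIRF window (chr10:86968232-86968531, plus strand) also held 0 matches, with 100 bases in exons of ADIRF and all 300 in exons of ADIRF-AS1 on the other strand. Of 35116 windows of this length, 17.2% held at least 1 match and 0.316% held at least 4. The TATA box TATAAA, the androgen receptor half-site AGAACA and the forkhead core TGTTTAC had 0 matches in all of the members' windows, against shares of 11.5%, 14.8% and 3.42% of all windows. A match is only a run of letters and was not set against any binding data.

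Of the LNCaP genes, MME stood at 2673 CPM in LNCaP–ENZ168 (95% Poisson interval 2633 to 2713, 16874 UMIs), 12.1 CPM in VCaP parental (10.6 to 13.8, 237 UMIs) and 17.8 CPM in VCaP–ENZ48 (15.7 to 20.2, 255 UMIs). The log2 ratio of CPM + 1 was 7.15 over VCaP–ENZ48 and 7.67 over VCaP parental, or 142-fold and 203-fold, and the latter ratio ran from 6.87 with TMM scaling to 8.20 with only barcodes ending in a base. NCAM2 gave 807 CPM in LNCaP–ENZ168 (785 to 830, 5097 UMIs), 1.02 CPM in VCaP parental (0.626 to 1.58, 20 UMIs) and 1.54 CPM in VCaP–ENZ48 (0.964 to 2.33, 22 UMIs), with log2 ratios of 8.31 and 8.64 over VCaP–ENZ48 and VCaP parental. ADGRG6 gave 534 CPM in LNCaP–ENZ168 (516 to 552, 3371 UMIs), 1.69 CPM in VCaP parental (1.16 to 2.37, 33 UMIs) and 0.979 CPM in VCaP–ENZ48 (0.535 to 1.64, 14 UMIs), with log2 ratios of 8.08 and 7.64. None of the LNCaP genes was at 0 in VCaP. All intervals cover counting error only and say nothing of the spread between cultures.

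Of the VCaP genes, ITM2A had 0 UMIs among the 6313283 kept UMIs of LNCaP–ENZ168, 1396 CPM in VCaP parental (1379 to 1413, 27243 UMIs) and 1300 CPM in VCaP–ENZ48 (1281 to 1319, 18590 UMIs). Taking 3 UMIs per library as the most that a count of 0 allows, or 0.475 CPM in LNCaP–ENZ168, ITM2A was at least 2938-fold lower there than in VCaP parental and at least 2736-fold lower than in VCaP–ENZ48. ADIRF also had 0 UMIs in LNCaP–ENZ168, with 1141 CPM in VCaP parental (1126 to 1156, 22271 UMIs) and 852 CPM in VCaP–ENZ48 (837 to 867, 12185 UMIs). It was at least 2402-fold lower in LNCaP–ENZ168 than in VCaP parental and at least 1793-fold lower than in VCaP–ENZ48. Both genes stayed at 0 UMIs in LNCaP–ENZ168 when all 1000 barcodes of the file were taken.

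**Figure D1:**
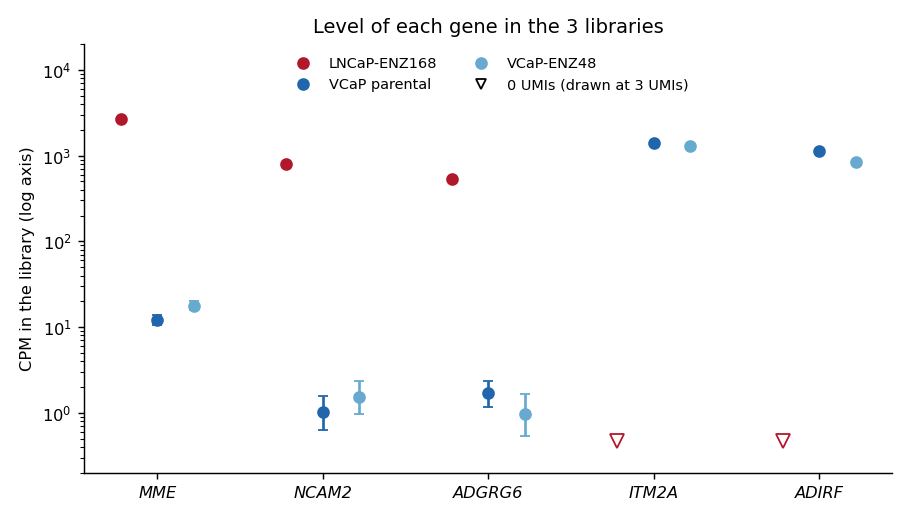
Level of each gene in each library, in CPM on a log axis, with points for library sums and bars for 95% Poisson intervals. Open triangles mark 0 UMIs and are drawn at the level of 3 UMIs. MME, NCAM2 and ADGRG6 are high only in the LNCaP–ENZ168 library of the 3, and ITM2A and ADIRF are high in both VCaP libraries and at 0 in LNCaP–ENZ168.

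Among the 4500 genes that reached 50 CPM in any library, 52 (1.16%) were at least 16-fold higher in LNCaP–ENZ168 than in both VCaP libraries, and these held the 3 LNCaP members. A further 73 (1.62%) were at least 16-fold lower in LNCaP–ENZ168, and these held the 2 VCaP members. Because the members were chosen on this contrast, the counts place them and support nothing. By the smaller of their log2 ratios, NCAM2 was 2nd, ADGRG6 4th and MME 10th of the 52, and ITM2A was 1st and ADIRF 2nd of the 73. Of the 52 genes, 9 had 0 UMIs in both VCaP libraries, which none of NCAM2, ADGRG6 and MME had, and of the 73 genes 15 had 0 UMIs in LNCaP–ENZ168. At the edge of the 16-fold limit, GTF2H2 fell just inside (smaller log2 ratio 4.02) and AGA just outside (3.97) for LNCaP, and MPP1 (4.04) and APOD (3.97) did so for VCaP. All 5 members passed the limit under each of the 14 alternatives tried. Scaling by TMM factors gave 35 higher and 103 lower genes, which moved the share of higher genes from 41.6% to 25.4%.

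Between the VCaP libraries ITM2A and ADIRF differed by less than 2-fold. ADIRF was lower in VCaP–ENZ48 by a log2 ratio of -0.42 (-0.45 to -0.39) and ITM2A by -0.10 (-0.13 to -0.076). Among the 3270 genes that reached 50 CPM in VCaP parental or VCaP–ENZ48, 207 (6.33%) were at least 2-fold higher in VCaP–ENZ48 and 327 (10%) at least 2-fold lower, and neither ITM2A nor ADIRF was among them. TMM scaling gave 144 higher and 703 lower genes, moving the share of higher genes from 38.8% to 17.0%, and leaving out mitochondrial and ribosomal protein genes gave 350 higher and 315 lower genes (52.6%), as cells of low S and G2M count gave 161 and 123 (56.7%). The ITM2A ratio ran from -0.39 with TMM scaling to 0.013 without mitochondrial and ribosomal protein genes, so its direction was not fixed by these data, while the ADIRF ratio stayed below 0 in every alternative, from -0.71 to -0.31. The median of all genes of at least 10 CPM was -0.037 in this comparison, so ADIRF lay below it and ITM2A close to it. The LNCaP genes were under 50 CPM in VCaP and were not counted there. MME was higher in VCaP–ENZ48 by 0.52 (0.29 to 0.82), and this ratio ran from 0.25 with TMM scaling to 1.22 with only barcodes ending in a base, while the intervals of NCAM2 (-0.36 to 1.54) and ADGRG6 (-1.80 to 0.15) held 0. Across the alternatives NCAM2 ran from -0.20 to 0.71 and ADGRG6 from -0.73 to 0.64, so neither had a fixed direction.

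The share of cells with at least 1 UMI followed the same division. MME was detected in 941 of 944 LNCaP–ENZ168 cells (99.7%), 162 of 997 VCaP parental cells (16.2%) and 120 of 947 VCaP–ENZ48 cells (12.7%). NCAM2 was detected in 96.5% of LNCaP–ENZ168 cells against 2.01% and 2.22% in VCaP parental and VCaP–ENZ48, and ADGRG6 in 86.9% against 2.81% and 1.37%. ITM2A was detected in 997 of 997 VCaP parental cells and 915 of 947 VCaP–ENZ48 cells (96.6%), and ADIRF in 99.8% and 96.3%. Both were found in 0 of 944 LNCaP–ENZ168 cells, which by the 3-count limit allows a share of cells with a UMI of up to 0.318%. The share in the line with the low level is the comparison for these values, although its cells were sequenced more deeply for the LNCaP genes and less deeply for the VCaP genes. For MME it is not a plain background, since the residual MME of VCaP was uneven over cells, as given below.

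Thinning each cell to 2000 UMIs put the libraries on one depth and left 943, 997 and 917 cells in the order above, with 1, 0 and 30 shallower cells left out. At that depth MME was detected in 96.2% of LNCaP–ENZ168 cells (Clopper-Pearson 95% interval 94.8% to 97.3%), 2.31% of VCaP parental cells (1.47% to 3.44%) and 3.05% of VCaP–ENZ48 cells (2.04% to 4.38%). The VCaP shares that had stood in the order parental above ENZ48 at full depth no longer did, and the CPM values also stood the other way, so no order is read from the full-depth shares. NCAM2 fell to 77.1% of LNCaP–ENZ168 cells (74.3% to 79.7%) and ADGRG6 to 60.4% (57.2% to 63.6%), with at most 0.602% in either VCaP library. ITM2A was detected in 87.3% of VCaP parental cells (85.0% to 89.3%) and 84.3% of VCaP–ENZ48 cells (81.8% to 86.6%). ADIRF was detected in 85.9% of VCaP parental cells (83.5% to 88.0%) and 73.6% of VCaP–ENZ48 cells (70.6% to 76.4%). These intervals cover the count of cells in each library and make no test between the treatments.

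**Figure D2:**
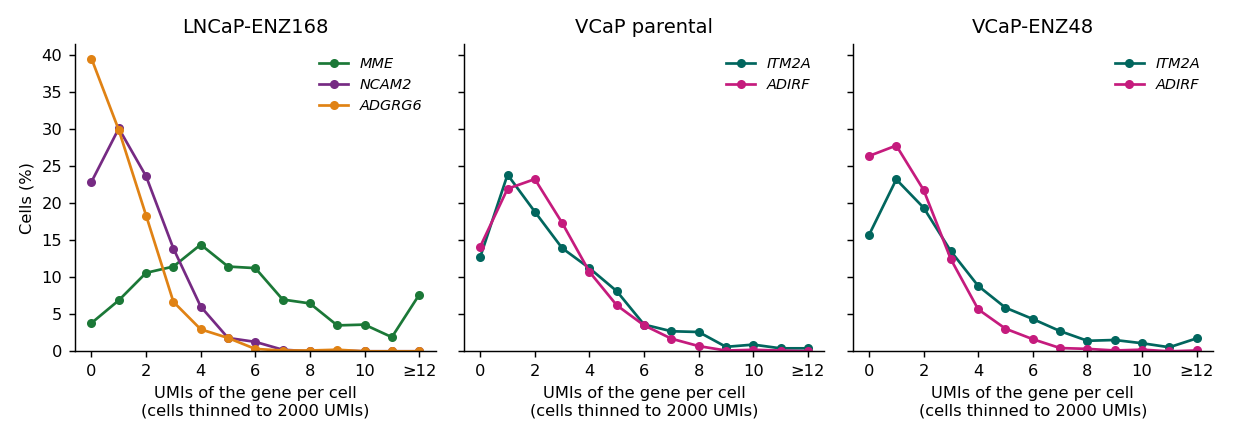
Share of cells (vertical axis, %) by the number of UMIs of each gene per cell after thinning to 2000 UMIs (horizontal axis), in the line that expresses it. MME has a broad peak around 4 UMIs with 3.82% of LNCaP–ENZ168 cells at 0, whereas the other curves peak between 0 and 2 UMIs and fall from there. The last point pools cells of 12 or more UMIs.

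Within the expressing line the genes varied from cell to cell by more than counting error. The excess coefficient of variation (CV), which is the spread left after removing the Poisson part at each cell's own depth, was 45.9% for MME, 39.3% for NCAM2 and 59.2% for ADGRG6 in LNCaP–ENZ168. Among the 237 other genes of at least 500 CPM in that library the share with a lower value was 66.7% for MME, 54.9% for NCAM2 and 84.4% for ADGRG6, and the median of all such genes was 37.5%. MME ranged from 0 to 175 UMIs per cell with a median of 14, and the cells at the 10th and 90th percentiles had 988 and 4734 CPM, a 4.79-fold range. NCAM2 ranged from 0 to 50 UMIs with a median of 4, and ADGRG6 from 0 to 36 with a median of 3. Each gene was at 0 in more cells than depth alone gives. MME was at 0 in 3 cells (0.318%, with 0.0037% expected), NCAM2 in 3.496% of cells (2.178% expected) and ADGRG6 in 13.1% (6.78% expected). The 2 cells with none of the 3 genes held 5316 and 5849 UMIs, close to the median depth, and whether they form a group of their own was not tested.

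In VCaP the excess CV of ITM2A was 52.7% in VCaP parental and 56.8% in VCaP–ENZ48, above 91.4% and 93.2% of the other genes of at least 500 CPM in those libraries. For ADIRF it was 42.5% and 48.8%, above 88.1% and 87.7% of the other genes, where the medians of all such genes were 23.3% and 31.2%. ITM2A therefore lay among the more variable of the abundant VCaP genes in both libraries. Its counts ran from 1 to 141 UMIs per cell in VCaP parental, with a median of 23, and from 0 to 169 in VCaP–ENZ48, with a median of 13. ADIRF ran from 0 to 127 UMIs per cell with a median of 19, and from 0 to 112 with a median of 8. The 10% of cells with the most ITM2A UMIs held 26.2% of them in VCaP parental and 34.8% in VCaP–ENZ48, and for ADIRF these shares were 24.2% and 36.4%. Shallow cells were more frequent in VCaP–ENZ48, and the cells at 0 numbered 32 of 947 for ITM2A (3.38%, with 0.690% expected from depth) and 35 of 947 for ADIRF (3.70%, with 1.94% expected).

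Most single LNCaP–ENZ168 cells had a UMI of each of the 3 LNCaP genes. All 3 were detected in 792 of 944 cells (83.9%), 2 of them in 146 cells, 1 in 4 cells and none in 2 cells. After thinning, 451 of 943 cells (47.8%) had all 3 and 8 cells (0.848%) had none. Each gene alone was detected in 99.7% (MME), 96.5% (NCAM2) and 86.9% (ADGRG6) of cells before thinning. High single shares give a high joint share without any link, so these counts show no link between the genes. The amounts were only weakly related. Pearson's r of log(1 + thinned UMIs) over 943 cells of the same library was 0.13 for MME and NCAM2, 0.18 for MME and ADGRG6, and 0.14 for NCAM2 and ADGRG6. ITM2A and ADIRF gave 0.050 over 997 VCaP parental cells and 0.13 over 917 VCaP–ENZ48 cells. Other settings gave 0.10 to 0.19, 0.16 to 0.26 and 0.068 to 0.14 for the 3 LNCaP pairs in that order, and 0.063 to 0.14 for ITM2A and ADIRF in VCaP–ENZ48. In counts this sparse, such values are no finding.

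Among other genes, MME was most correlated over LNCaP–ENZ168 cells with the nuclear noncoding RNA MALAT1 (r = 0.35), with MANEA, a Golgi mannosidase (0.26), and with the metalloreductase gene STEAP2 (0.23), and 5 of the 3893 genes of at least 50 CPM exceeded 0.2. MALAT1 also came 1st for NCAM2 (0.19) and 2nd for ADGRG6 (0.22). The first partner of ADGRG6 was UGT2B17 (0.25), an enzyme that glucuronidates androgens. In VCaP–ENZ48 the partners of ITM2A were DHRS7 (0.28), TM7SF2, a sterol reductase of cholesterol synthesis (0.27), and ACPP, prostatic acid phosphatase (0.26), and ACPP also came 1st in VCaP parental (0.18). No gene exceeded 0.2 for ADIRF in either VCaP library or for NCAM2. All of these points come from the same library each and share its depth, and the part of RNA quality in them was not tested.

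All 3 LNCaP genes were lower in the LNCaP–ENZ168 cells with the most S and G2M transcripts. The share of all genes that were lower in these cells was not counted, so the members are not set apart from other genes here. Cells were split into tertiles by the thinned UMI count of 97 cell cycle genes. MME stood at 3034 CPM in the low tertile (321 cells), 2880 CPM in the middle tertile (335 cells) and 2054 CPM in the high tertile (287 cells), a log2 ratio of high over low of -0.56 (-0.62 to -0.51). NCAM2 went from 879 to 866 to 665 CPM (-0.40, -0.50 to -0.30) and ADGRG6 from 591 to 559 to 445 CPM (-0.41, -0.54 to -0.28). Most of the drop lay between the middle and the high tertile for each gene. Tertiles by depth gave smaller differences in the same direction, -0.16 for MME, -0.11 for NCAM2 and -0.21 for ADGRG6 in the deepest over the shallowest cells, and tertiles by mitochondrial share gave -0.20, -0.031 and -0.21.

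In VCaP the same split gave opposite directions in the libraries for ITM2A. ITM2A went from 1524 to 1420 to 1255 CPM over the tertiles of VCaP parental (log2 ratio -0.28, -0.32 to -0.24), and in VCaP–ENZ48 from 1257 to 1253 to 1446 CPM (0.20, 0.15 to 0.25). ADIRF was nearly level in VCaP parental, from 1157 to 1162 to 1106 CPM (-0.066, -0.11 to -0.019), and in VCaP–ENZ48 went from 779 to 884 to 962 CPM (0.30, 0.24 to 0.37). The tertiles are not the same cells in both libraries, since the high tertile began at 38 cell cycle UMIs in VCaP parental and at 6 in VCaP–ENZ48. Depth moved with ITM2A as well, by -0.17 in VCaP parental and -0.35 in VCaP–ENZ48 for the deepest over the shallowest tertile, and by -0.032 and 0.064 for ADIRF. The part of depth in the cell cycle values was not tested, and other genes were not counted over these tertiles. Among cells of at most 4 cell cycle UMIs, the ratio of VCaP–ENZ48 over VCaP parental was -0.38 for ITM2A and -0.52 for ADIRF, with 576 and 103 cells.

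**Figure D3:**
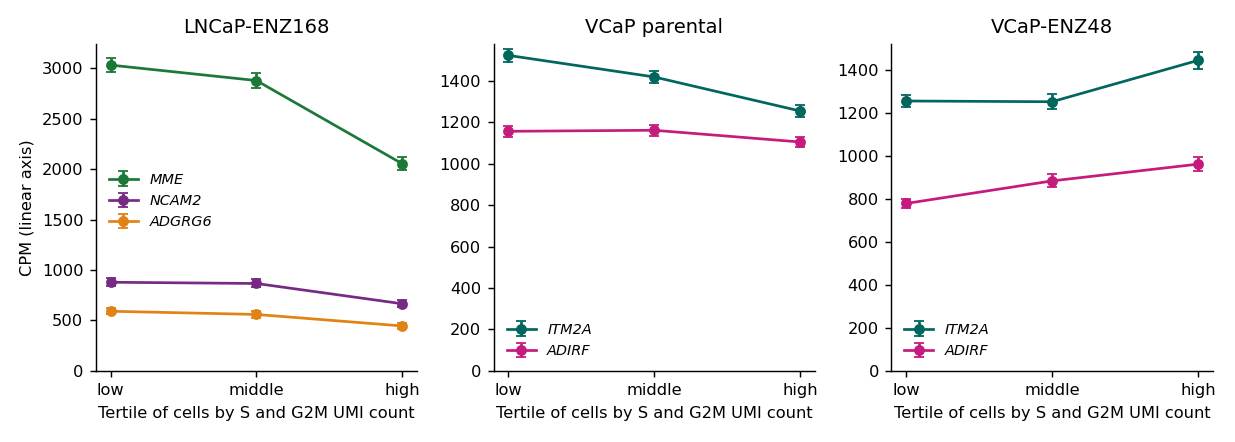
Level of each gene (CPM, linear axis from 0, 95% Poisson intervals) in tertiles of cells by their thinned S and G2M UMI count, within each library. MME drops from 2880 CPM in the middle tertile to 2054 CPM in the high tertile of LNCaP–ENZ168, and ITM2A falls over the tertiles of VCaP parental but is highest in the high tertile of VCaP–ENZ48.

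The residual MME of VCaP was uneven over cells. NCAM2 reached at most 1 UMI in a VCaP parental cell and 2 in a VCaP–ENZ48 cell, and ADGRG6 at most 2 in either, but their 14 to 33 UMIs per library are too few to compare their evenness with that of MME. MME reached 42 UMIs in 1 VCaP parental cell and 21 UMIs in 1 VCaP–ENZ48 cell. A limit of 4 MME UMIs was set after these values were seen, and the cells above it are described with no test. In VCaP–ENZ48, 11 of 947 cells (1.16%, 0.581% to 2.07%) reached it where 1.502 were expected from depth, and they held 42.4% of the MME UMIs of the library. In VCaP parental, 2 of 997 cells reached it, with 42 and 7 UMIs, and held 20.7%. The remaining cells had 9.66 CPM of MME in VCaP parental and 10.5 CPM in VCaP–ENZ48. Leaving cells out by their own MME count lowers both values by construction, so nothing is concluded from how close they are.

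The MME-high VCaP–ENZ48 cells were VCaP cells by the other genes. All 11 carried ITM2A and ADIRF, at 1980 CPM and 800 CPM against 1288 CPM and 853 CPM in the other 936 cells, and 10 of 11 carried ERG. They held 2 UMIs of NCAM2 and 1 of ADGRG6 in all. REG4, a secreted lectin of the gut epithelium, was found in 10 of the 11 at 1644 CPM against 30.4 CPM and 9.62% of the other cells, and in 10.1% of the 691 other cells at least as deep as the shallowest of them. REG4 was named after its values were seen. One cell held 273 of the 411 REG4 UMIs, 6 of the 10 positive cells had 1 to 7, and without the largest the other 10 cells stood at 621 CPM. Outside these cells, the 90 REG4-positive cells under 4 MME UMIs had 11.5 CPM of MME (7.01 to 17.7) and the 846 such REG4-negative cells 10.3 CPM (8.60 to 12.3). IGFBP3, an insulin-like growth factor binding protein, stood at 496 CPM in the 11 cells against 91.9 CPM in the others. In VCaP parental, the cell with 7 MME UMIs had 32 REG4 UMIs and the cell with 42 had 0. Doublets were not identified in any library, and their part in these cells was not tested.

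**Figure D4:**
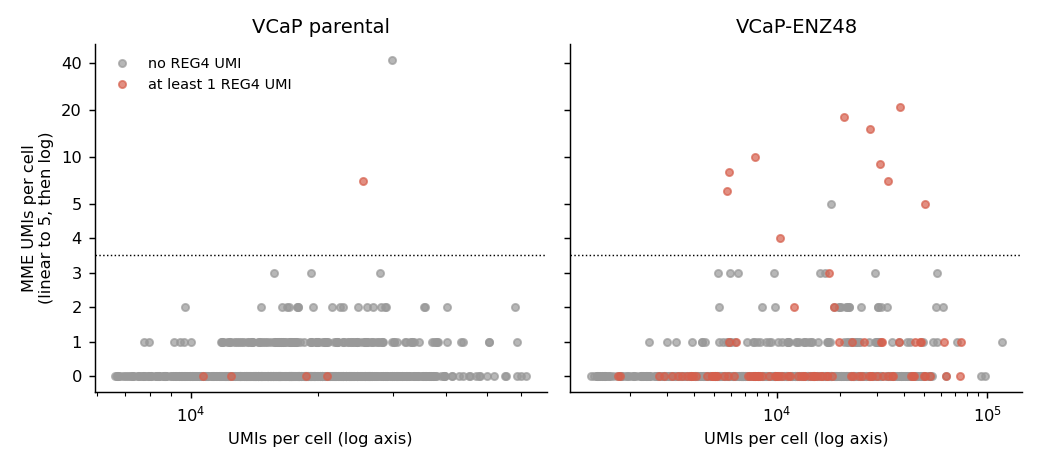
MME UMIs per cell (vertical axis, linear to 5 and then log) against all UMIs of the cell (horizontal axis, log) in VCaP parental and VCaP–ENZ48, with cells holding at least 1 REG4 UMI in red. The dotted line separates cells of 4 or more MME UMIs, of which there are 2 in VCaP parental and 11 in VCaP–ENZ48, 10 of the 11 with REG4.

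Over the 3 libraries, the patterns nearest to the members by the distance between log2(CPM + 1) values among 4500 genes included other members. NCAM2 had ADGRG6 as its nearest gene, at 0.81. UGT2B17 (566 CPM in LNCaP–ENZ168, 2.82 CPM in VCaP parental and 1.12 CPM in VCaP–ENZ48) and the sialyltransferase gene ST3GAL1 (338, 0.512 and 1.26 CPM) came next for NCAM2. ADGRG6 was nearer to UGT2B17, at 0.52, than to NCAM2, and ST3GAL1 followed. ITM2A and ADIRF were each other's nearest gene at 0.67, followed by S100A10 (1.11, 800 and 1206 CPM) and the tetraspanin gene TSPAN8 (0.634, 284 and 665 CPM), both of which were higher in VCaP–ENZ48, unlike the members. The gene nearest to MME was MAP1B, a microtubule-associated protein (1252, 14.0 and 7.27 CPM), at a distance of 1.63, then NIPSNAP3A at 2.11 and MANEA at 2.27. With 3 libraries as the only points, likeness here means the same line and nothing more.

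The peptidase, NCAM group and adipogenic lists held genes that differed in either direction, while the adhesion receptor and BRICHOS lists had none at least 2-fold lower. Measured genes are those of at least 10 CPM in either library compared. Of all 10146 measured genes, 36.9% were at least 2-fold higher in LNCaP–ENZ168 than in VCaP–ENZ48 and 13.8% lower. Their median log2 ratio was 0.67, which TMM scaling shifted by -0.51. Against VCaP parental, 37.1% of 9699 measured genes were higher and 11.7% lower, with a median of 0.64 that TMM scaling shifted by -0.79. Shares of all genes with TMM scaling were not counted, so the TMM counts of the families have no such background. Of 17 other surface and neuropeptide-degrading peptidases found, 10 were measured, with 4 at least 2-fold higher and 2 lower (3 and 2 with TMM), and against VCaP parental 4 of 11 were higher and 3 lower (2 and 3 with TMM). CPE, which trims prohormones, stood at 106 CPM in LNCaP–ENZ168, 9.38 CPM in VCaP parental and 12.7 CPM in VCaP–ENZ48, the order kept below. MMEL1, the closest relative of MME, stood at 33.4, 2.51 and 8.32 CPM, while ECE1, the endothelin-converting enzyme, went the other way at 5.07, 12.8 and 24.8 CPM. Of 8 measured adhesion molecules of the NCAM, L1 and nectin-like group, 1 was higher and 5 were lower with either scaling, and against VCaP parental 2 of 7 were higher and 4 lower (1 and 4 with TMM). ALCAM was the higher one (224, 33.7 and 23.6 CPM) and the lower ones included CADM1 (11.2, 113 and 155 CPM). NCAM1, the closest relative of NCAM2, had 4, 63 and 50 UMIs and was under 10 CPM throughout.

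Of 23 other adhesion G protein-coupled receptors found, 5 were measured and 3 were at least 2-fold higher in LNCaP–ENZ168, or 1 with TMM scaling, and against VCaP parental 2 of 5 were (1 with TMM). The one that passed with TMM was ADGRG1, at 37.2, 3.54 and 5.73 CPM. Of 21 ligand and cAMP pathway genes of ADGRG6 found, 10 were measured, with 4 higher and 1 lower (3 and 1 with TMM), and against VCaP parental 6 of 9 were higher and 0 lower (3 and 0 with TMM). GNAS, the stimulatory G protein subunit, stood at 1182, 315 and 347 CPM and PRKACB, a catalytic subunit of protein kinase A, at 518, 56.5 and 29.8 CPM, whereas PRNP, the prion protein and a known agonist of the receptor, stood at 135, 102 and 120 CPM. ITM2B, of the same family as ITM2A, was present in every library at 378, 271 and 308 CPM, and its small excess in LNCaP–ENZ168 turned into a deficit with TMM scaling (log2 ratio over VCaP–ENZ48 of 0.29 and -0.24). ITM2C stood at 53.4, 14.8 and 17.1 CPM. Of 6 measured adipogenic genes besides ADIRF, 3 were higher and 2 lower with either scaling, and against VCaP parental 4 of 7 were higher and 3 lower (3 and 3 with TMM). PLIN3 (115, 34.2 and 26.6 CPM) and SREBF1 (70.8, 6.51 and 6.01 CPM) were among the higher ones. FABP5 (0.158, 16.7 and 32.9 CPM) and PLIN2 (1.43, 21.1 and 27.2 CPM) were lower than in both VCaP libraries. LPL, with 0 UMIs in LNCaP–ENZ168 and 14.5 and 8.46 CPM in VCaP, was the other lower one against VCaP parental. PPARG, the main regulator of fat cell differentiation, was under 4 CPM in each library.

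The members lie on 5 chromosomes of GRCh38, MME at chr3:155024124-155183704, NCAM2 at chr21:20998409-21543329, ADGRG6 at chr6:142301854-142446266, ITM2A at chrX:79360384-79367667 and ADIRF at chr10:86968432-86983934. Of the 30 nearest protein-coding genes, 3 on each side, 14 were found and reached 10 CPM in any library. Of these, 3 were at least 2-fold apart between the lines in the direction of the member against both VCaP libraries, and 2 in the opposite direction. The 3 were VTA1, HIVEP2 and AIG1, at 77.2, 305 and 614 kb from ADGRG6. The 2 were GPR149, 594 kb from MME, and ATP5PF, 4173 kb from NCAM2. In this paragraph near means among these 30 genes, at any distance. With TMM scaling SHLD2, near ADIRF, joined the 3. Of all genes of at least 10 CPM, 36.9% were at least 2-fold higher in LNCaP–ENZ168 than in VCaP–ENZ48 and 13.8% lower. Against VCaP parental these shares were 37.1% and 11.7%. The share of all genes that passed against both libraries was not counted, so these neighbours are not set apart from other genes. VTA1, HIVEP2 and AIG1 stood at 492, 51.04 and 37.8 CPM, at 18.1, 4.46 and 5.38 CPM and at 281, 56.7 and 59.2 CPM, in the same order of libraries. Near MME, GPR149 had 0 UMIs in LNCaP–ENZ168 and 7.28 and 10.6 CPM in VCaP. DHX36 (278, 148 and 110 CPM) and ARHGEF26 (185, 97.3 and 16.2 CPM), also near MME, were over 2-fold higher in LNCaP–ENZ168 than in VCaP–ENZ48 but not than in VCaP parental. C21orf91 and MRPL39, 3179 and 4042 kb from NCAM2 on either side, had 23.6, 14.2 and 11.5 CPM and 71.8, 94.4 and 67.1 CPM. BRWD3, 1302 kb from ITM2A, had 15.05, 9.89 and 7.97 CPM. GLUD1 and SHLD2 near ADIRF had 85.7, 38.8 and 47.3 CPM and 19.8, 40.6 and 36.2 CPM. SNCG, next to ADIRF, was under 10 CPM throughout, with 0 UMIs in LNCaP–ENZ168 and 2.25 and 2.24 CPM in VCaP. MME-AS1, antisense to MME, had 36 UMIs in LNCaP–ENZ168 and 0 in both VCaP libraries, and ADIRF-AS1 had 0 UMIs in LNCaP–ENZ168, 63 in VCaP parental and 50 in VCaP–ENZ48. The sources used here do not say whether strand was used in counting, so reads of these antisense genes and of their partners cannot be told apart.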

How the data were processed

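Drop-seq libraries of LNCaP–ENZ168, VCaP parental and VCaP–ENZ48 were analysed. Each deposited file gives unnormalized UMI counts, with genes as rows and barcodes as columns, which the authors made with STAR, the Drop-seq tools and Picard on GRCh38 with Gencode annotation, default parameters and 1000 expected cells. No cell filter is given for them in the sources used here. A gene with no row in a file was counted as 0.

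Barcodes under 300 genes, under 500 UMIs or over 25% mitochondrial UMIs were dropped, leaving 6313283, 19515202 and 14301287 UMIs in the 3 libraries. Doublets were not called. UMIs were summed over cells and scaled to CPM, and ratios between libraries are log2 of CPM + 1. Their exact conditional intervals are for the ratio of CPM with nothing added, so a ratio and its interval differ for low counts. Ratios between tertiles and the smallest folds given for ITM2A and ADIRF in LNCaP–ENZ168 are also of CPM with nothing added. With 1 library per group there was no statistical test, and cells were not used as replicates. Shares have Clopper-Pearson intervals. Cells were thinned without replacement to 2000 UMIs. S and G2M genes came from Seurat 5.3.0, TMM factors from edgeR 4.0.16. Drop-seq tags the 3′ end, so levels are not per length and levels of different members were not compared. The functions for ratios, thinning and spread were tested on simulated data. Gene positions and neighbours are from Gencode 44, a later version than the authors used, on the same build.

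The members and gene lists were chosen with earlier results of these data known. Named genes were the members, up to 5 genes per family list, the 3 nearest genes by pattern, the 3 most correlated genes and the 3 nearest coding genes on each side with any overlapping gene. The genes at the edge of the 16-fold limit, ECE1, NCAM1, PPARG, LPL, ERG, ETV1, LUM, REG4 and IGFBP3 were added after their values were seen.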

Additional observations from a re-analysis of the deposited data

Results flagged for a closer look

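ITM2A went opposite ways over the cell cycle tertiles in the libraries with and without drug. ADIRF rose over the tertiles in VCaP–ENZ48 and was nearly level in VCaP parental. The log2 ratio of the high over the low S and G2M tertile was -0.28 in VCaP parental and 0.20 in VCaP–ENZ48 for ITM2A, and -0.066 and 0.30 for ADIRF. With 1 library of each kind the difference was not tested, and the tertiles span different numbers of cell cycle UMIs in the libraries. Other genes were not counted over the tertiles.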

How the results depend on the processing

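No paired analysis was possible because there was a single library of every kind and no result came from a test. For the same reason no replicate could be left out. In all, 5 members passed the 16-fold limit under 14 of 14 alternatives, and ITM2A and ADIRF had 0 UMIs in LNCaP–ENZ168 under each of 5 cell filters. Between LNCaP–ENZ168 and VCaP–ENZ48 the log2 ratio moved for MME to 6.62 with TMM factors, 6.66 with median of ratios, 6.92 without mitochondrial and ribosomal protein genes and 6.87 with a pseudocount of 5, for NCAM2 to 6.96 with a pseudocount of 5, and for ADGRG6 to 8.95 and 6.49 with pseudocounts of 0.1 and 5. Over VCaP parental the ratio ran from 7.08 to 9.49 for NCAM2 and from 6.33 to 8.22 for ADGRG6, the ends set by the pseudocounts. The ITM2A ratio of VCaP–ENZ48 over VCaP parental turned to 0.013 without mitochondrial and ribosomal protein genes, and was -0.14 with the stricter cell filter (at least 1000 genes and at most 15% mitochondrial UMIs), -0.036 without barcodes above 3 times the median depth, -0.18 with only barcodes ending in a base, -0.38 among cells of low S and G2M count, -0.020 with each cell weighted equally, -0.39 with TMM and -0.33 with median of ratios. For ADIRF it was -0.33 with barcodes ending in a base, -0.52 among low S and G2M cells, -0.71 with TMM, -0.65 with median of ratios and -0.31 without mitochondrial and ribosomal protein genes. The scaling alternatives differ by construction in the total, and the cause of the other shifts was not tested.

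Counts of genes at least 16-fold higher in LNCaP–ENZ168 became 31 with a pseudocount of 5, 97 with a minimum of 20 CPM and 106 at 8-fold. Counts of lower genes became 30 with a pseudocount of 5, 118 and 41 with minimums of 20 and 100 CPM, and 47 at 32-fold. Counts of genes at least 2-fold higher in VCaP–ENZ48 became 350 without mitochondrial and ribosomal protein genes and 488 and 104 with minimums of 20 and 100 CPM, and of lower genes 123 among low S and G2M cells, 703 with TMM, 613 with median of ratios and 197 with a minimum of 100 CPM.

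Shares of cells follow depth. Thinned to 1000 UMIs they were 88.1% for MME, 56.5% for NCAM2 and 41.7% for ADGRG6 in LNCaP–ENZ168, 67.8% and 66.3% for ITM2A and ADIRF in VCaP parental, and 65.6% and 51.95% in VCaP–ENZ48. Thinned to 4000 UMIs they were 99.3%, 94.3%, 78.3%, 96.2%, 96.0%, 94.0% and 93.0% in the same order, and with no thinning 99.7%, 96.5%, 86.9%, 100%, 99.8%, 96.6% and 96.3%. Among low S and G2M cells NCAM2 was at 80% and ADGRG6 at 65.7%, and in VCaP parental ITM2A at 95.1% and ADIRF at 82.5%. With barcodes ending in a base, ITM2A and ADIRF were at 89.9% and 81.9% in VCaP parental and ADIRF at 78.4% in VCaP–ENZ48. Merging barcodes 1 base apart was added after the data were seen and moved none of these values beyond its interval. The excess CV stayed within 1.5 times under 35 of 35 alternatives.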
